A study of Homo sapiens with 39 samples.

Results

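DSCAM-AS1 and LINC01016 are noncoding RNAs whose expression has been tied to the estrogen receptor in luminal breast cancer. They were read by symbol, as 2 of the 46706 symbols in the deposited expression table. The pair was chosen by its levels in these same groups, as well as by that link to the receptor. Their levels and their differences between groups are therefore given as description, with intervals and no test.

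RNA was sequenced from HCC1428-LTED, a breast cancer cell line kept for a long term without estrogen (LTED, long-term estrogen-deprived), grown in 5% charcoal-stripped serum. The control group received DMSO alone. The 6 treated arms received GDC-0810, AZD9496, their hybrids GDC-SAR and AZD-SAR, SAR439859 or fulvestrant, each at 30 nM and at 300 nM for 24 hours. The hybrids are taken to keep the scaffold of GDC-0810 or AZD9496 and to carry the side chain of SAR439859. Their treatment labels give only the names and doses. GDC-0810 and AZD9496 are called the parents here. Each of the 13 groups had 3 libraries, 39 in all. The labels do not say whether these came from separate cultures, so the spread between them may be technical. All groups share the same line, medium and estrogen-deprived background, which limits them to 1 model of luminal disease. Values are in TPM (transcripts per 1000000), a share of each library's RNA scaled by transcript length. Fewer cells carrying an RNA and less of it per cell cannot be told apart in such bulk samples.

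The estrogen receptor is a ligand-activated transcription factor that binds DNA near its target genes and recruits coactivators. Selective receptor degraders occupy the hormone pocket and lower the amount or the activity of the receptor protein. DSCAM-AS1 is transcribed from the strand opposite DSCAM, a cell adhesion gene best known from the nervous system. It is known as a luminal breast cancer transcript induced through the receptor, and it binds the RNA-binding protein HNRNPL. LINC01016 is an intergenic noncoding RNA that has been described as a receptor target in breast cancer and has also been studied in endometrial cancer.

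In the GENCODE version 29 annotation of GRCh38, DSCAM-AS1 (ENSG00000235123.5) lies on chromosome 21 from 40383083 to 40385358 on the plus strand. It spans 2276 bases, with 4 annotated transcripts of 2 to 3 exons. It sits inside intron 3 of the DSCAM transcript with 33 exons (40369246 to 40692809) and shares 0 bases with DSCAM exons. LINC01016 (ENSG00000249346.6) lies on chromosome 6 from 33867506 to 33896914 on the minus strand and spans 29409 bases, with 5 annotated transcripts.

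Of the 2 genes, LINC01016 matched the RefSeq promoter table (GRCh38.p14), and its window is shown because the level of this RNA differed between the receptor ligands. The window covers 250 bases before to 50 after the start, chr6:33896858-33897157 on the minus strand, read 5′ to 3′ with motif matches in capitals.
LINC01016: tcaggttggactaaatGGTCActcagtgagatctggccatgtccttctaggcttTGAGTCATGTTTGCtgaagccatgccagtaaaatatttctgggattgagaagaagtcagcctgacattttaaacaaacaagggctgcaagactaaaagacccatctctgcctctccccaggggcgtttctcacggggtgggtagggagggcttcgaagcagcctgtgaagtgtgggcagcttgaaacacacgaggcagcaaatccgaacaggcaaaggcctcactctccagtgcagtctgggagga
Each motif was searched on both strands. The first capitals are the letters GGTCA, a single arm of the palindromic estrogen response element, at position -234 from the start. The second run joins 2 adjacent matches, the AP-1 letters TGANTCA at -196 and the forkhead letters TGTTTGC at -189. The full element (GGTCA and TGACC with any 3 letters between), the forkhead letters TGTTTAC and the GATA letters AGATAA had no match in this window. Of the 35116 promoters in the table, 37.4% hold the single arm, 7.71% the AP-1 letters, 3.89% TGTTTGC, 3.42% TGTTTAC, 10.3% the GATA letters and 0.057% the full element. A match describes letters only, and no match says only that the letters are not in this window.

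DSCAM-AS1 fell into 2 separate ranges. With DMSO it was at 123, 112 and 111 TPM (115 ± 6.75, SD, n = 3). The parents left it closer to that level than the other ligands did. Every AZD9496 library was still below the lowest DMSO library, and every GDC-0810 library at 30 nM above the highest. With GDC-0810 the 3 libraries held 132, 126 and 127 TPM at 30 nM and 106, 116 and 95.3 TPM at 300 nM. With AZD9496 they held 100.5, 109.6 and 103 TPM at 30 nM and 102, 105 and 88.5 TPM at 300 nM. The other 4 ligands all brought it below 35 TPM, from 23.1 to 34.9 TPM over their 24 libraries with a median of 27.8.

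Within that low range the libraries lay close together. Fulvestrant gave 28.9, 27.4 and 25.7 TPM at 30 nM and 29.7, 28.1 and 26.4 TPM at 300 nM. SAR439859 gave 27.8, 28.3 and 27.9 TPM at 30 nM and 34.9, 27.3 and 30.6 TPM at 300 nM. GDC-SAR gave 28.03, 27.1 and 26.2 TPM at 30 nM and 27.8, 23.1 and 28.97 TPM at 300 nM. No library of these ligands overlapped any library of DMSO or of a parent. AZD-SAR gave 24.3, 24.1 and 24.3 TPM at 30 nM and 32.7, 30.2 and 27.3 TPM at 300 nM. The lowest group was therefore AZD-SAR at 30 nM, with the libraries of its higher dose all above it.

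LINC01016 was less abundant and fell into 3 ranges instead. With DMSO it was at 19.8, 16.04 and 16.7 TPM (17.5 ± 2.01). The parents took it to an intermediate level. GDC-0810 gave 8.95, 10.6 and 7.09 TPM at 30 nM and 11.6, 7.05 and 8.35 TPM at 300 nM. AZD9496 gave 11.9, 11.2 and 7.07 TPM at 30 nM and 10.6, 8.16 and 9.44 TPM at 300 nM. The 12 parent libraries, from 7.05 to 11.9 TPM, were all below the lowest DMSO library.

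The other 4 ligands brought LINC01016 near the bottom of the scale. Fulvestrant gave 1.06, 1.71 and 1.40 TPM at 30 nM and 0.230, 1.54 and 0.166 TPM at 300 nM. SAR439859 gave 1.3004 and 5.01 TPM and a library listed at 0 at 30 nM, and 0.911 and 0.729 TPM and a library listed at 0 at 300 nM. A value of 0 in this table need not be a low level. MALAT1, an abundant nuclear RNA of nearly all cells, is listed at 0 in 2 libraries and lies between 55707 and 107943 TPM in the rest. Among those 2 is SAR439859 at 30 nM replicate 1, which also lists LINC01016 at 0. The hybrids were at the same low level of LINC01016, without a library at 0. GDC-SAR gave 1.92, 1.29 and 0.819 TPM at 30 nM and 0.797, 1.57 and 0.479 TPM at 300 nM. AZD-SAR gave 0.330, 1.53 and 1.51 TPM at 30 nM and 1.52, 0.905 and 1.66 TPM at 300 nM. Of these 24 libraries 11 were below 1 TPM, and all 24 were below the 12 of the parents. The 5.01 TPM library, SAR439859 at 30 nM replicate 3, is also the one with the fewest genes above 0.

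**Figure D1:**
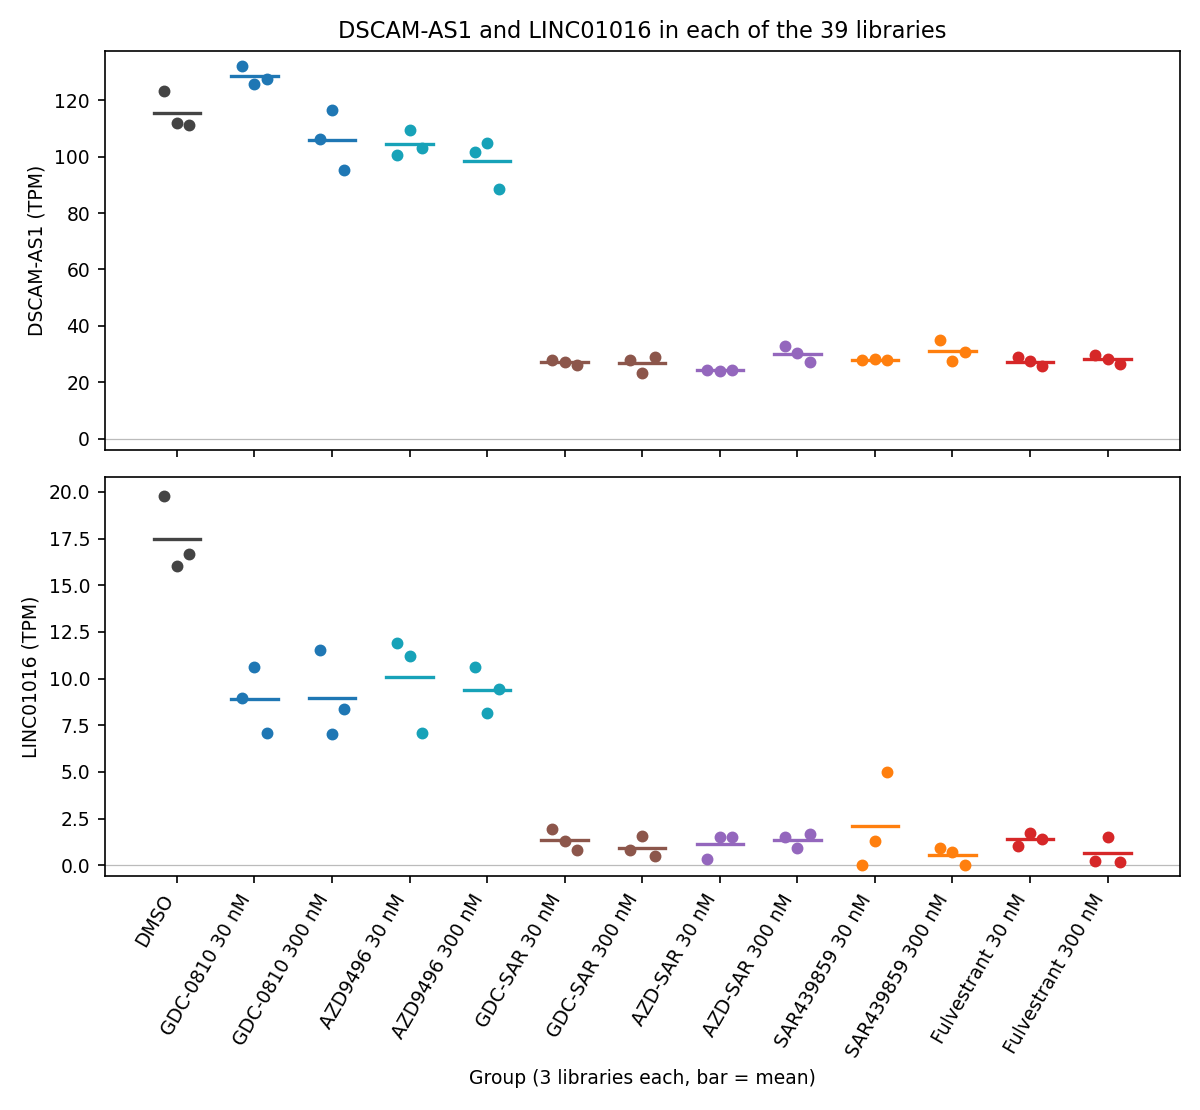
Expression of DSCAM-AS1 (top) and LINC01016 (bottom) in TPM (y axis) for each of the 39 libraries, by group (x axis), with 1 point per library and a bar at the mean of 3. DSCAM-AS1 shows a high range shared by DMSO and the parents and a low range from 23.1 to 34.9 TPM, while LINC01016 shows DMSO above the parents and the parents above the other 4 ligands.

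In relative terms the groups ranked as follows. DSCAM-AS1 stood at 111% of its DMSO mean with GDC-0810 at 30 nM, 91.8% with GDC-0810 at 300 nM, and 90.5% and 85.1% with AZD9496 at 30 and 300 nM. The next group in order, SAR439859 at 300 nM, stood at 26.8%, and the last, AZD-SAR at 30 nM, at 21.0%. Neighbouring groups overlapped in their libraries except at 2 steps of the order. These were GDC-0810 at 30 nM above DMSO and AZD9496 at 300 nM above SAR439859 at 300 nM. LINC01016 stood at 57.5% and 53.8% with AZD9496 and 50.8% and 51.3% with GDC-0810 (30 and 300 nM). With the other ligands its group means were between 3.12% and 12.02% of DMSO. Its order also had 2 steps without overlap, DMSO above AZD9496 at 30 nM and GDC-0810 at 30 nM above SAR439859 at 30 nM. How often other genes show such steps, or have ligand libraries that do not overlap DMSO, was not counted.

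On the log2(TPM + 1) scale used below, DSCAM-AS1 differed from DMSO by -1.87 to -2.20 with fulvestrant, SAR439859 and the hybrids over both doses (SE 0.0975). With the parents the differences were 0.15 and -0.13 for GDC-0810 and -0.14 and -0.23 for AZD9496, at 30 and 300 nM. LINC01016 differed from DMSO by -2.94 to -3.63 with fulvestrant, SAR439859 and the hybrids (SE 0.401). With the parents its differences were -0.91 and -0.91 for GDC-0810 and -0.77 and -0.83 for AZD9496. The added 1 TPM shrinks the LINC01016 differences because its treated levels lie near 1 TPM, and with 0.1 TPM added those with the 4 low ligands ran from -3.58 to -5.32. All these comparisons share the 3 DMSO libraries. Among them, 2 have an index sequence in common with a treated library, so they may have been pooled or run apart from it. The part of pooling in the differences from DMSO was not tested. The comparisons between ligands below leave DMSO out.

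Replacing the side chain on a fixed scaffold with that of SAR439859 went with lower levels of both RNAs. On the GDC-0810 scaffold, DSCAM-AS1 averaged 27.1 ± 0.900 TPM with GDC-SAR against 128 ± 3.27 TPM with GDC-0810 at 30 nM, a ratio of 4.73. The log2 difference was -2.20 (SE 0.0975, 95% interval -2.40 to -2.003). At 300 nM the means were 26.6 ± 3.12 and 106 ± 10.5 TPM, a ratio of 3.98 (log2 -1.95, interval -2.15 to -1.76). On the AZD9496 scaffold, AZD-SAR averaged 24.2 ± 0.113 TPM against 104 ± 4.67 TPM for AZD9496 at 30 nM, a ratio of 4.31 (log2 -2.06, interval -2.26 to -1.86). At 300 nM they were 30.1 ± 2.71 and 98.3 ± 8.63 TPM, a ratio of 3.27 (log2 -1.68, interval -1.88 to -1.48). No library of a hybrid overlapped a library of its parent, and the share of all genes without such overlap in each pair was not counted.

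LINC01016 showed the same order with wider intervals. These use a spread pooled over all 39 libraries, including SAR439859 at 30 nM, which ran from 0 to 5.01 TPM. GDC-SAR averaged 1.34 ± 0.552 TPM against 8.88 ± 1.76 TPM for GDC-0810 at 30 nM, a ratio of 6.61 (log2 -2.09, SE 0.401, interval -2.91 to -1.27). At 300 nM the means were 0.950 ± 0.563 and 8.98 ± 2.32 TPM, a ratio of 9.45 (log2 -2.37, interval -3.19 to -1.55). AZD-SAR averaged 1.12 ± 0.688 TPM against 10.1 ± 2.62 TPM for AZD9496 at 30 nM, a ratio of 8.95 (log2 -2.41, interval -3.23 to -1.59). At 300 nM they averaged 1.36 ± 0.403 and 9.41 ± 1.23 TPM, a ratio of 6.90 (log2 -2.15, interval -2.97 to -1.33). Ranked by size of the log2 difference among 14404 tested genes, LINC01016 was 37, 26, 20 and 50 in these 4 comparisons and DSCAM-AS1 31, 51, 35 and 129. A criterion set after these values were seen, with every parent library above every library of the other 4 ligands, held for 72 of the 14404 genes (0.5%), both RNAs among them. Because these ranks and that criterion describe the pattern that chose the pair, nothing is read from the ranks or the share.

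**Figure D2:**
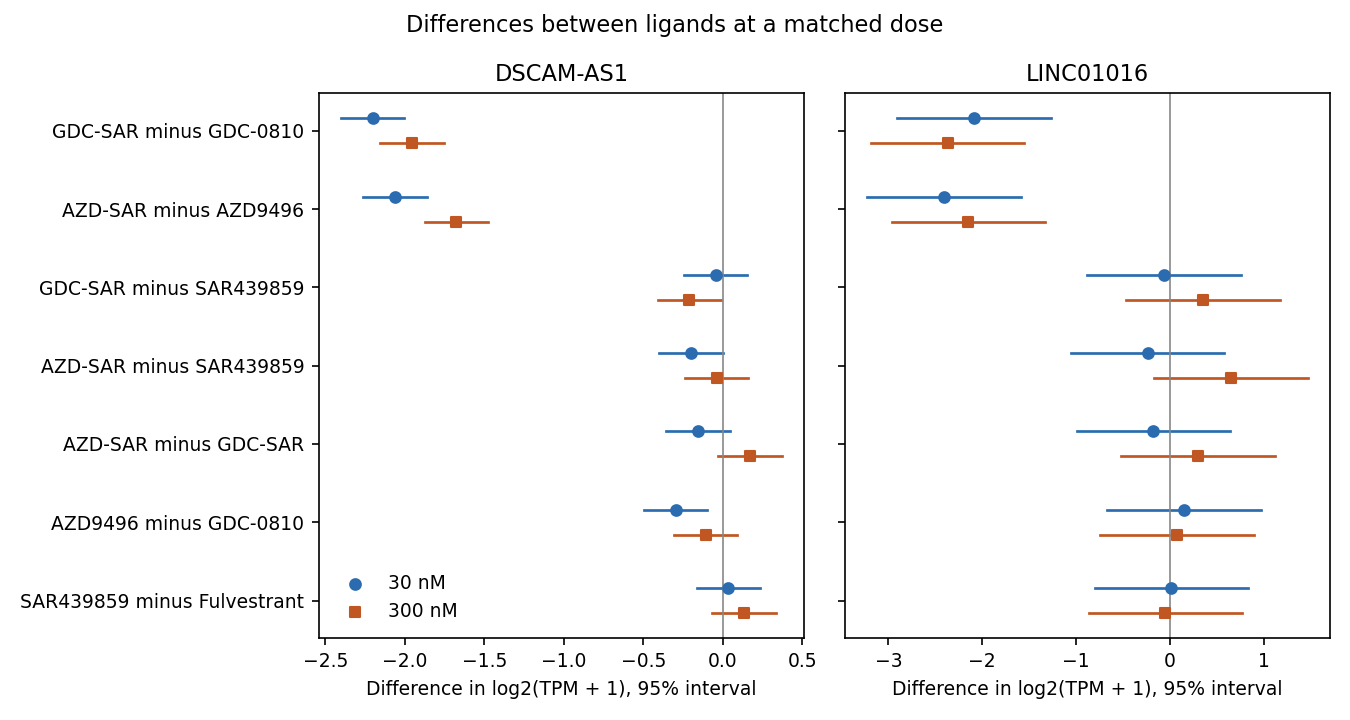
Difference in log2(TPM + 1) between ligands (x axis, point with 95% interval) for the 7 ligand pairs (y axis) at 30 nM (circles) and 300 nM (squares), for DSCAM-AS1 (left) and LINC01016 (right). The hybrid minus parent pairs in the top 2 rows lie between -1.68 and -2.41, and the other pairs lie within 0.66 of 0.

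Ligands that share the SAR439859 side chain on different scaffolds were compared next, with the spread taken from all 39 libraries. For DSCAM-AS1, GDC-SAR minus SAR439859 was -0.04 at 30 nM (95% interval -0.24 to 0.16) and -0.21 at 300 nM (interval -0.41 to -0.01). AZD-SAR minus SAR439859 was -0.20 at 30 nM (interval -0.40 to -0.0014), where the libraries did not overlap, and -0.04 at 300 nM (interval -0.24 to 0.16). By size the 30 nM difference ranked only 7506 among 14404 tested genes. AZD-SAR minus GDC-SAR was -0.16 at 30 nM (interval -0.36 to 0.04) and 0.17 at 300 nM (interval -0.03 to 0.37). At 30 nM the libraries of these hybrids did not overlap either, and the difference ranked 6736 by size. The share of all genes without such overlap was not counted for these pairs. The intervals leave room for differences of up to 0.41 in size on the log2 scale between these compounds.

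For LINC01016 the same pairs could be placed only loosely, since its group means with these ligands, 0.547 to 2.10 TPM, lie around the 1 TPM added before the log. GDC-SAR minus SAR439859 was -0.06 at 30 nM (interval -0.88 to 0.76) and 0.35 at 300 nM (interval -0.47 to 1.17). AZD-SAR minus SAR439859 was -0.24 at 30 nM (interval -1.06 to 0.58) and 0.65 at 300 nM (interval -0.17 to 1.47). AZD-SAR minus GDC-SAR was -0.18 at 30 nM (interval -0.99 to 0.64) and 0.30 at 300 nM (interval -0.52 to 1.12). At 30 nM both comparisons with SAR439859 depend on its spread from a library listed at 0 to 5.01 TPM. Without replicate 3 of that group they were 0.60 and 0.43, and without replicate 1 they were -0.69 and -0.87. With 0.1 TPM added they were 0.62 and 0.22.

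Among the other pairs, DSCAM-AS1 was lower with AZD9496 than with GDC-0810 at 30 nM, with no overlap between their libraries, by -0.30 (interval -0.50 to -0.10). By size this ranked only 6107 among 14404 tested genes, and the share of all genes without such overlap was not counted. At 300 nM that difference was -0.11 (interval -0.31 to 0.09). LINC01016 differed by 0.15 at 30 nM (interval -0.67 to 0.97) and by 0.08 at 300 nM (interval -0.74 to 0.90). SAR439859 minus fulvestrant was 0.03 and 0.13 for DSCAM-AS1 (intervals -0.16 to 0.23 and -0.07 to 0.33) at 30 and 300 nM. For LINC01016 it was 0.02 and -0.05 (intervals -0.80 to 0.84 and -0.87 to 0.77). The 30 nM value was -0.71 with 0.1 TPM added, 0.65 without SAR439859 replicate 1 and -0.65 without its replicate 3.

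The 10-fold step in dose was read for each ligand. DSCAM-AS1 differed in opposite directions with 2 of the ligands. With GDC-0810 it was lower at 300 nM than at 30 nM by -0.28 (interval -0.48 to -0.08). With AZD-SAR it was higher at 300 nM by 0.30 (interval 0.10 to 0.50). In both cases the libraries of the doses did not overlap. The share of all genes without such overlap was not counted. By size these differences ranked only 3297 and 3575 among 14404 tested genes, and 0 genes were called for either dose step. The other DSCAM-AS1 differences were 0.04 with fulvestrant, 0.13 with SAR439859, -0.09 with AZD9496 and -0.03 with GDC-SAR.

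LINC01016 was lower at 300 nM than at 30 nM by -0.69 with SAR439859 (interval -1.51 to 0.13) and by -0.63 with fulvestrant (interval -1.44 to 0.19). Without SAR439859 30 nM replicate 3 the first difference shrank to -0.03, and without replicate 1 it was -1.32. It was 0.005 with GDC-0810, -0.06 with AZD9496, -0.28 with GDC-SAR and 0.20 with AZD-SAR.

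The side chain difference was also set side by side on both scaffolds, as the value on the GDC-0810 scaffold minus that on the AZD9496 scaffold. For DSCAM-AS1 this was -0.14 at 30 nM (SE 0.138, interval -0.42 to 0.14) and -0.28 at 300 nM (interval -0.56 to 0.0032). For LINC01016 it was 0.32 at 30 nM (SE 0.567, interval -0.84 to 1.48) and -0.22 at 300 nM (interval -1.38 to 0.94).

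The balance between the 2 RNAs also varied with the ligand. Per 100 TPM of DSCAM-AS1, LINC01016 stood at 15.1 ± 0.871 TPM with DMSO. The parents lowered that ratio to group means of 6.93 with GDC-0810 at 30 nM, 8.56 with GDC-0810 at 300 nM and 9.65 and 9.64 with AZD9496. With the other ligands the group means ran from 1.76 to 7.51, the highest from SAR439859 at 30 nM, whose libraries ran from 0 to 17.9. With the parents the lower ratio came with DSCAM-AS1 near its DMSO level and LINC01016 at 50.8% to 57.5% of it.

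DSCAM, the gene on the opposite strand, was read beside DSCAM-AS1. It averaged 0.953 ± 0.0944 TPM with DMSO and 0.777 to 0.930 TPM in the 4 parent groups. With the other ligands its group means were 0.114 to 0.205 TPM, with 1 library (SAR439859 at 30 nM, replicate 3) listed at 0. Per 100 TPM of DSCAM-AS1 the group means of DSCAM lay between 0.408 and 0.881 TPM. Its libraries therefore fall into the same 2 ranges. Libraries were stranded, per the labels' protocols, but the strand setting of the quantification is not given in the sources used here. How far the DSCAM values hold reads of DSCAM-AS1 was not tested. DSCAM was below the mean of 1 TPM required for testing and has no test.

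**Figure D3:**
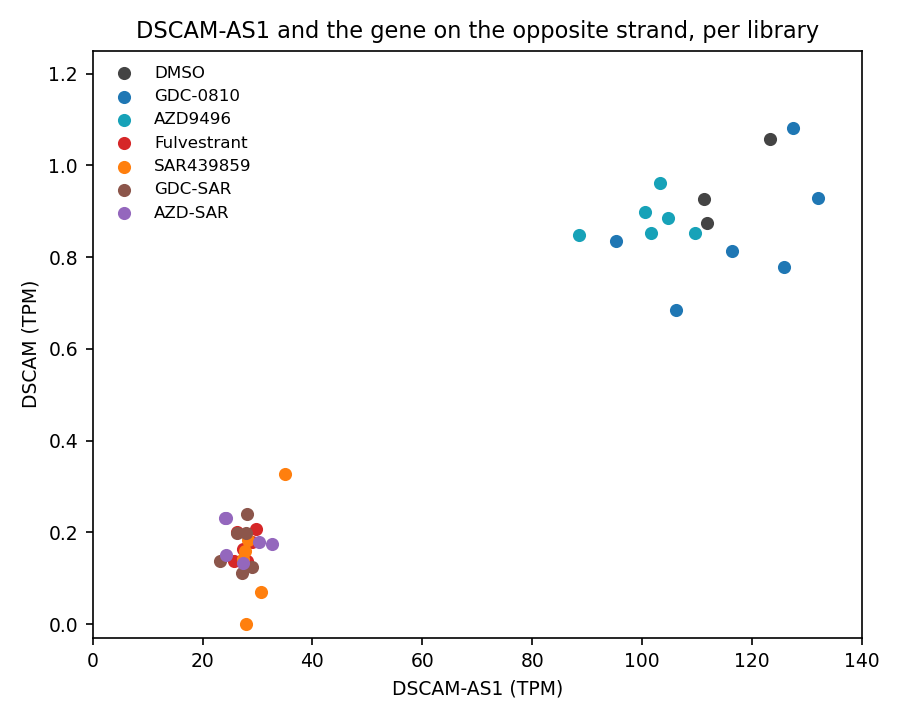
DSCAM (y axis, TPM) against DSCAM-AS1 (x axis, TPM), with 1 point per library coloured by ligand. The 3 libraries of DMSO and the 12 of the parents lie together at high values of both, and the 24 libraries of the other ligands lie together at low values, DSCAM never above 0.328 TPM there.

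Other neighbours in the annotation were read as well. On chromosome 21 the nearest neighbours with a row in the table are PCP4, a calmodulin-binding peptide gene, 453686 bases away, and DSCAM-IT1, 230020 bases away. PCP4 averaged 0.687 ± 0.385 TPM with DMSO and 0.156 to 0.784 TPM in the treated groups, and DSCAM-IT1 was listed at 0 in all 3 DMSO libraries. Both lie near 0. Beside LINC01016 lie MLN, which encodes the gut hormone motilin and was listed at 0 in every DMSO library, and LEMD2, an inner nuclear membrane gene 78370 bases away. LEMD2 averaged 31.3 ± 2.999 TPM with DMSO and 24.3 to 36.2 TPM with the ligands at 300 nM. At that dose AZD9496 gave 36.2 ± 4.07, AZD-SAR 33.0 ± 14.9, fulvestrant 31.6 ± 3.19, GDC-0810 28.4 ± 8.40 and both SAR439859 and GDC-SAR 24.3 TPM. MIR4760, RF00432, MIR7159, MIR1275, AL138889.1 and AL138889.2 are neighbours without a row under these symbols.

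Likeness to other genes was measured over the 13 group means as the root mean square difference in log2(TPM + 1), after each gene was centred on its own mean. A smaller value is a closer pattern. STC1, which encodes the secreted glycoprotein stanniocalcin, was closest to DSCAM-AS1 (0.219). It averaged 25.9 ± 0.833 TPM with DMSO, 23.4 ± 1.54 with GDC-0810 and 26.1 ± 2.82 with AZD9496 at 300 nM, and 4.13 ± 0.376 with SAR439859 at that dose. IL17RB, a cytokine receptor gene, followed (0.259), then SLC7A5, a large neutral amino acid transporter (0.285), HIST1H3F, a replication-dependent histone H3 gene (0.297), and CDC6, a replication licensing factor (0.302). HIST1H3F is uncertain because histone copies share sequence, and it varied with DMSO (86.7 ± 31.5 TPM). With GDC-0810 and AZD9496 at 300 nM, HIST1H3F stood at 43.3% and 61.7% of DMSO and CDC6 at 54.6% and 43.7%. DSCAM-AS1 stayed higher there, at 91.8% and 85.1%. LINC01016 ranked 27 in likeness to DSCAM-AS1 (0.421).

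CITED1, a transcriptional coactivator gene, was closest to LINC01016 (0.270). It averaged 26.3 ± 10.3 TPM with DMSO, 13.2 ± 2.07 with GDC-0810, 12.9 ± 2.03 with AZD9496 and 0.944 ± 0.119 with fulvestrant at 300 nM. With SAR439859 at 30 nM CITED1 averaged 7.12 ± 12.3 TPM, its libraries running from 0 to 21.4. IL17RB (0.334), SERPINA3, a secreted protease inhibitor gene (0.353), STC1 (0.365) and ID4, a helix-loop-helix inhibitor gene (0.393), came next. IL17RB and STC1 thus appear among the 5 closest to both RNAs. DSCAM-AS1 ranked 7 in likeness to LINC01016. With 0.1 TPM added, STC1 and SERPINA3 left the 5 closest to LINC01016 while IL17RB stayed, and all 5 of DSCAM-AS1 were kept. Without SAR439859 30 nM replicate 3 the 5 closest to LINC01016 were the same genes, but IL17RB came ahead of CITED1.

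**Figure D4:**
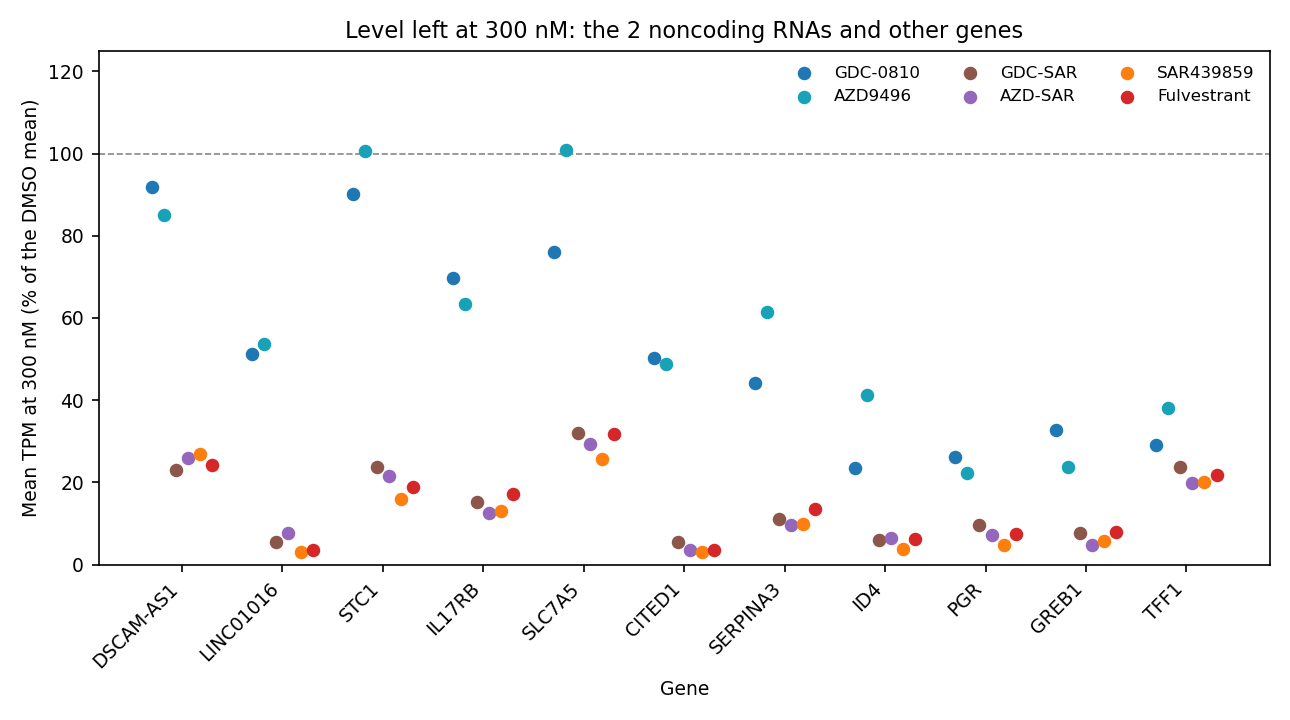
Mean TPM at 300 nM as a percentage of the DMSO mean (y axis) for the 2 noncoding RNAs, 6 of the genes most like them and 3 estrogen-induced genes (x axis), with 1 point per ligand (mean of 3 libraries). DSCAM-AS1 has the parents at 91.8% and 85.1% and the other ligands at 23.1% to 26.8%, whereas TFF1 has all 6 ligands between 19.9% and 38.2%. The LINC01016 mean with SAR439859 includes a library listed at 0.

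Classic estrogen-induced genes give a scale for the parents. TFF1, a secreted trefoil peptide gene, stood at 29.2% of DMSO with GDC-0810 and 38.2% with AZD9496 at 300 nM, and PGR, the progesterone receptor gene, at 26.3% and 22.2%. GREB1, a receptor coregulator gene, stood at 32.8% and 23.8%. At the same dose DSCAM-AS1 stood at 91.8% and 85.1%, and LINC01016 at 51.3% and 53.8%. With the hybrids at 300 nM, TFF1 stood at 23.9% (GDC-SAR) and 19.9% (AZD-SAR), beside 23.1% and 26.1% for DSCAM-AS1. PGR was lower, at 9.62% and 7.22%, as was GREB1, at 7.73% and 4.78%. LINC01016 stood at 5.43% and 7.79% with the same hybrids. These are levels side by side, and the difference between genes was not tested. PDZK1, the remaining gene of that list, was below the expression filter.

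Genes linked to the 2 RNAs were read against DMSO at 300 nM, for fulvestrant and SAR439859, then the parents GDC-0810 and AZD9496, then the hybrids GDC-SAR and AZD-SAR, the order of all counts below. The list held HNRNPL and YBX1, RNA-binding proteins known to bind DSCAM-AS1, RRM2 and EPS8, studied downstream of it, and NFYA and SATB1, studied downstream of LINC01016. Of the 6 tested, 1, 1, 1, 1, 1 and 1 were called higher and 1, 2, 2, 1, 1 and 2 lower. The shares of all tested genes called higher were 11.1%, 11.2%, 6.99%, 3.71%, 9.76% and 12.7%, and called lower 8.12%, 12.8%, 9.04%, 2.21%, 10.5% and 12.8%. The list's median log2 difference lay between -0.09 and 0.07, beside 0 to 0.10 over all genes.

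The gene called higher each time was SATB1, a chromatin organiser, which rose from 3.52 ± 1.05 TPM with DMSO to between 8.98 ± 2.61 with AZD9496 and 17.2 ± 4.70 with SAR439859 (log2 1.13, adjusted p = 0.0108 by limma, and 2.002, adjusted p = 2.49e-06). RRM2, the small subunit of ribonucleotide reductase, fell with all 6 ligands. It went from 163 ± 7.85 TPM with DMSO to 33.9 ± 8.63 with SAR439859 (log2 -2.26) and 92.5 ± 5.79 with AZD9496 (log2 -0.81, limma adjusted p = 0.0278). The RRM2 call with AZD9496 was lost when any of the 6 libraries compared was left out (adjusted p up to 0.102) or without the expression filter (0.0652), and the SATB1 call when any of 4 was (up to 0.07). HNRNPL fell from 77.8 ± 0.547 TPM to 41.4 ± 3.78 with SAR439859, 37.5 ± 6.58 with GDC-0810 and 38.3 ± 10.8 with AZD-SAR, and the SAR439859 call was lost without 1 library (adjusted p = 0.051). YBX1, EPS8 and NFYA were not called with any ligand at 300 nM, their log2 differences running from -0.30 to -0.08, 0.06 to 0.48 and 0.17 to 0.33.

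Of 16 genes for the receptor, its pioneer factors and coregulators, 7, 7, 5, 4, 6 and 8 were called higher by limma and 0 lower. Over all tested genes the shares called higher were those given above, 3.71% to 12.7%. The list's median log2 difference was 0.20 to 0.37, beside 0 to 0.10 over all genes. At an unadjusted p under 0.05, 7, 8, 6, 8, 7 and 8 were higher and 0, 1, 0, 0, 1 and 1 lower. A called fall appeared with SAR439859 after median-of-ratios scaling (1 gene) and without SAR439859 30 nM replicate 3 (1 gene). With AZD-SAR it appeared without its replicate 3 (2 genes). NCOA3, a receptor coactivator, rose by 0.64 to 0.82 with every ligand, and EP300, an acetyltransferase, by 0.44 to 0.63. GATA3, a luminal transcription factor, rose by 1.41 with fulvestrant to 2.29 with AZD-SAR in 5 of the 6 and was not called with AZD9496. FOXA1, the pioneer factor, rose by 0.56 to 1.13, and its call with AZD9496 was lost with median-of-ratios scaling (adjusted p = 0.0731), without the expression filter (0.0857) and without any of 5 single libraries (up to 0.199). The FOXA1 call with GDC-0810 was lost without 1 library (0.0569). ESR1, the receptor gene, averaged 436 ± 24.9 TPM with DMSO and was not called at 300 nM. Its means there ran from 352 ± 48.2 TPM with GDC-0810 to 498 ± 80.6 with AZD9496.

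Other noncoding RNAs described in breast cancer or hormone response were read from a list. Of 40 listed, 33 were in the table and 20 were tested. The counts called higher were 2, 3, 1, 1, 2 and 3 and called lower 0, 0, 0, 0, 2 and 1 by limma, beside 3.71% to 12.7% and 2.21% to 12.8% of all genes. Without AZD-SAR replicate 3, the genes called lower with AZD-SAR went from 1 to 3. Without SAR439859 30 nM replicate 3, 1 gene was called lower with fulvestrant and 1 with SAR439859. Dropping fulvestrant replicate 3 also left 1 called lower with fulvestrant. After median-of-ratios scaling, AZD9496 had 0 called higher and 1 lower. At an unadjusted p under 0.05, 4, 3, 4, 2, 2 and 3 were higher and 2, 2, 1, 2, 4 and 2 lower. The list's median log2 difference ran from -0.0035 with AZD9496 to 0.27 with SAR439859, beside 0 to 0.10 over all genes. NEAT1, the scaffold RNA of paraspeckles, rose by 1.11 with fulvestrant, 0.97 with SAR439859, 0.67 with GDC-SAR and 0.80 with AZD-SAR. TINCR, an epidermal differentiation RNA, fell by 1.49 with GDC-SAR, and SNHG1, a snoRNA host gene, fell by 0.66 with GDC-SAR and 0.74 with AZD-SAR. CASC2 rose by 0.63 to 0.91 with 5 of the ligands, all but AZD9496. The NEAT1 call with GDC-SAR, the CASC2 call with each ligand but GDC-SAR and every LINC00885 call were lost without some single libraries (adjusted p up to 0.154, 0.221 and 0.193). The steepest called fall in the list was that of TINCR, beside DSCAM-AS1 at -1.87 to -2.08 with fulvestrant, SAR439859 and the hybrids at that dose. DSCAM-AS1 was chosen by its levels in these groups, so nothing is read from its larger fall. MALAT1 differed by -5.27 with AZD-SAR at 300 nM and was not called (adjusted p = 0.179), as 1 of the 3 libraries lists it at 0.

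Across the libraries between 15818 and 26756 symbols were above 0. The lowest was SAR439859 at 30 nM replicate 3, which had 13 genes at 0 that reached at least 5 TPM in every other library. Without it, LINC01016 was at or below 1.92 TPM in every library of fulvestrant, SAR439859 and the hybrids. The 8 luminal epithelial markers summed to 6545 to 7403 TPM with DMSO and 6588 to 13520 TPM in treated libraries. Fibroblast markers summed to 7.32 to 9.39 TPM with DMSO and 9.29 to 23.7 TPM in treated libraries, immune markers to 6.94 to 8.45 and 4.09 to 14.4 TPM, basal or mesenchymal markers to 0.552 to 1.40 and 0.482 to 4.03 TPM, and endothelial markers to 0.326 to 0.463 and 0 to 1.87 TPM. No listed marker was at 0 in all libraries. All libraries come from 1 cultured cell line, so these sums are read as levels of the listed genes and not as shares of cell types. Their relation to the differences from DMSO was not tested.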

How the data were processed

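STAR and the build GRCh38 are named in the submitters' processing notes. The version of STAR is not given in the sources used here, nor are the annotation and the quantification tool. The authors' deposited values are TPM per gene symbol and were taken unchanged. Every library has the same total, so sequencing depth is unknown and no counting error could be attached. Groups came from the labels, which list 3 libraries each where the design text speaks of duplicates.

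Values were taken as log2(TPM + 1). One mean per group was fitted over all 39 libraries with limma 3.58.1 in R 4.3.3 (26 residual degrees of freedom, intensity trend), for the 14404 symbols averaging 1 TPM or more. P-values were adjusted by Benjamini-Hochberg within each comparison, and the fit was tested on simulated data. Intervals are 95%. Comparisons of the 2 RNAs between ligands and doses had been planned as tests. They are given as description, because the RNAs were chosen by their levels over all 13 groups. The mean of LINC01016 in that filter comes mostly from DMSO and the parents.

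The members and lists were chosen with earlier results of these data known. Named genes were the 2 RNAs, the 5 genes most like each, annotated neighbours, 4 reference genes, the partner list and up to 5 called genes with the largest changes in each other list. Alternatives were 0.1 TPM added, no expression filter, median-of-ratios scaling, a fit on the compared libraries alone, and dropping single libraries. Positions and promoters came from GENCODE version 29 and RefSeq.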

Additional observations from a re-analysis of the deposited data

How the results depend on the processing

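With only the libraries compared, 17 of the 20 pair values could be had, as the LINC01016 mean was under 1 TPM in the other 3. Adding 0.1 TPM took the LINC01016 hybrid minus parent differences to -2.69 (GDC-SAR) and -3.25 (AZD-SAR) at 30 nM and -3.22 and -2.73 at 300 nM, its hybrid minus SAR439859 differences to 0.62 (GDC-SAR) and 0.22 (AZD-SAR) at 30 nM and 1.13 and 1.70 at 300 nM, SAR439859 minus fulvestrant at 30 nM to -0.71 and the fulvestrant dose step to -1.48. Against DMSO it took LINC01016 to -3.58 (fulvestrant), -4.29 (SAR439859), -3.68 (GDC-SAR) and -4.07 (AZD-SAR) at 30 nM, and to -5.06, -5.32, -4.20 and -3.62 at 300 nM. Median-of-ratios scaling moved DSCAM-AS1 to -1.93 for AZD-SAR minus AZD9496 at 30 nM, -0.50 and -0.23 for AZD9496 minus GDC-0810 at 30 and 300 nM, -0.30 and -0.39 for the GDC-0810 scaffold minus the AZD9496 scaffold, and against DMSO to -2.12 with SAR439859 at 30 nM and -0.36 and -0.35 with AZD9496 at 30 and 300 nM. That scaling shifted the median of all genes by more than 0.1 only between AZD9496 at 30 nM and another group, from 0.18 to 0.0002 against DMSO. LINC01016 with 30 nM SAR439859 against DMSO ran from -3.60 to -2.31 with single libraries left out, and against fulvestrant from -0.65 to 0.65. The SAR439859 dose step of LINC01016 ran from -1.32 to -0.026. Its GDC-SAR and AZD-SAR minus SAR439859 differences at 30 nM ran from -0.69 to 0.60 and from -0.87 to 0.43. No difference of either RNA from DMSO with the 4 low ligands, and no hybrid minus parent difference, changed direction. Leaving out single libraries, an alternative added after the data were seen, moved the genes called at 300 nM against DMSO in the noncoding list to 1 to 4 with fulvestrant, 1 to 4 with SAR439859, 0 to 1 with GDC-0810 and 0 to 1 with AZD9496. With AZD9496 it moved the partner list to 0 to 2 and the receptor list to 2 to 4. Without the expression filter, AZD9496 had 1 partner and 0 noncoding genes called. Depth is unknown, and 2 libraries list LINC01016 at 0. No paired analysis was possible because replicate numbers follow sample order and pair no libraries.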
